A study of Rattus norvegicus with 6 samples.

Results

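The cytosolic ribosomal protein genes are the rat genes of the Rpl and Rps families, together with Rplp0, Rplp1, Rplp2 and Rpsa. Membership was set by gene symbol: a probe belonged to the family when the transcript accession in the scanner file led to one of these symbols in the RefSeq gene table. The members and the related lists were chosen with earlier results of these data known. The array held 243 probes for 83 such genes, of 61537 probes besides controls. Of these genes 81 were tested, 50 of the large (60S) subunit and 31 of the small (40S) subunit, among 27506 genes tested in all. Rpl27l2 and Rpl39l1 were not well above background on any array and have no value here. The kinases named for phosphorylating ribosomal protein S6 and 1 pseudogene share the prefix and were left out. By the form of their symbols alone, 8 genes were set apart as paralogs or copies, and the other 73 are called main genes. Whether each of the 8 is truly a copy was not checked.

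RNA came from the renal cortex of 6 male Sprague-Dawley (Crl:CD(SD)) rats, bought at 5 weeks of age and kept on a basal diet. Potassium bromate, an oxidising salt that is toxic to the kidney, was given to 3 rats at 100 mg/kg/day for 4 weeks, and water was given to the other 3 for the same time. Each animal had 1 Agilent single-colour array. Levels are log2 of the background-subtracted spot signal after division by the array's 75th percentile, and differences are bromate minus water on that log2 scale, with their standard errors (SE) from the limma fit and n = 3 animals per group throughout.

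A ribosome is built from RNA and a fixed set of proteins, most of them present once in each particle, so cells make these proteins in matched amounts. Their mRNAs are among the most abundant of a cell, and most begin with a 5′ terminal oligopyrimidine tract (TOP), a cytosine followed by a run of pyrimidines, through which the TOR kinase pathway controls how strongly they are translated. An mRNA level therefore says little by itself about how much protein is made. In human cells, free copies of some of these proteins, RPL5 and RPL11 above all, bind MDM2 and so raise p53.

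The family stood slightly higher in bromate cortex. Of the 81 genes, 73 (90.1%) had a difference above 0, against 47% of all 27506 genes, and the family's median difference was 0.19 (1.14-fold), against -0.02 for all genes tested. Under the other processing settings 70 to 80 of the family's genes lay above 0. By limma with Benjamini-Hochberg adjustment over all genes (adjusted p under 0.05), 7 genes rose: Rpsa, Rps27a, Rpl31, Rps19, Rpl39, Rps23 and Rps15a. These are 8.64% of the family, against a background of 6.87% of all genes called higher and 8.6% of all genes with a symbol, so the number called is near what the whole array gave. None fell by the same fit, while 7.59% of all genes and 8.33% of all genes with a symbol were called lower. At an unadjusted p under 0.05 none of the family was lower either, against 17.6% of all genes. At an unadjusted p under 0.05, 33 of the 81 were higher, against 15.2% of all genes. In 50 of the 81 genes (61.7%) all 3 bromate values lay above all 3 water values, as in 19.6% of all genes. In 2 genes, Rpl18 and Rpl3l, all 3 bromate values lay below all 3 water values, against 21.5% of all genes. Genes of a family share their arrays and are not independent, and the shift as a whole was described and not tested.

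**Figure D1:**
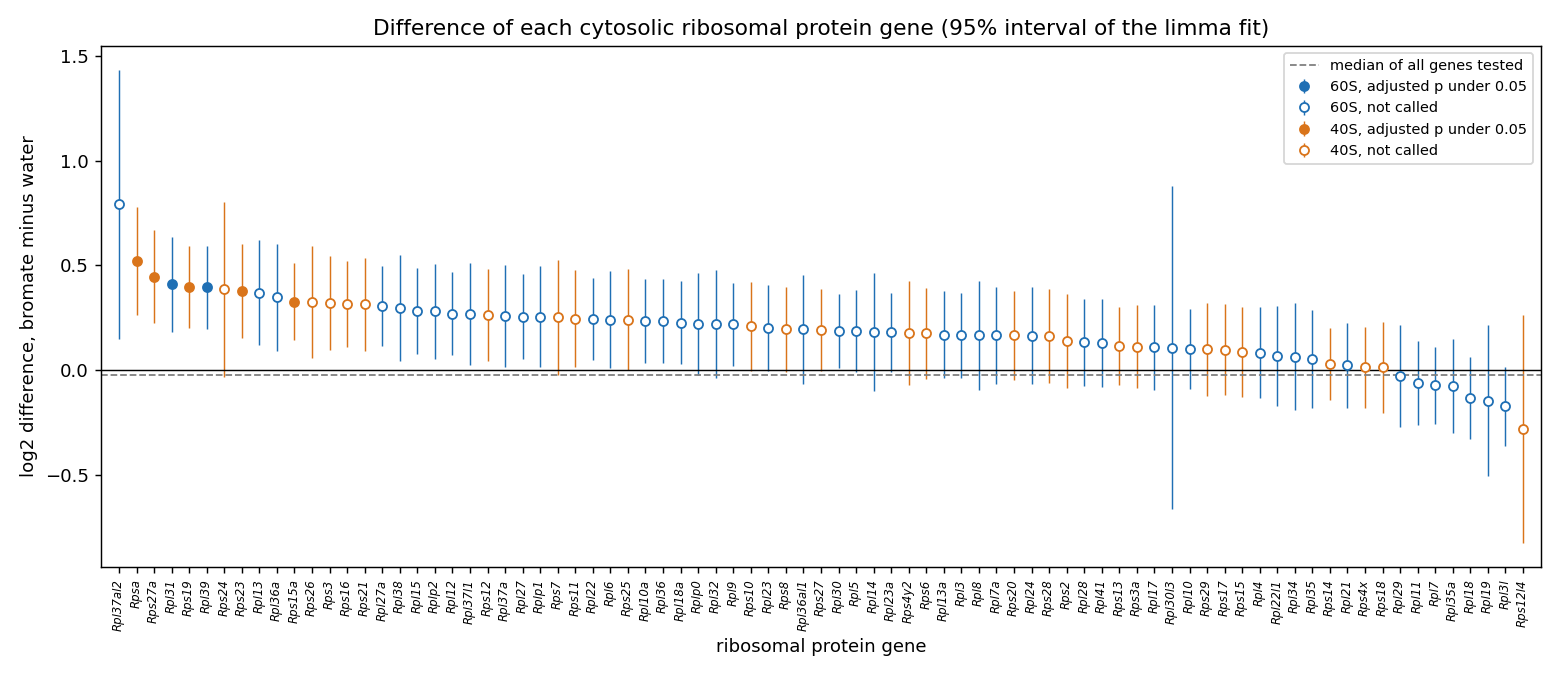
Difference of each of the 81 ribosomal protein genes (vertical axis, log2, bromate minus water, with its 95% interval), ordered along the horizontal axis from the largest to the smallest. Filled points are the 7 genes called at an adjusted p under 0.05. All but 8 points lie above 0, most of them by less than 0.4.

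By the same probe values, the family took a larger share of the summed signal in bromate rats. The brightest probes of the 81 genes took 3.97%, 3.90% and 3.93% of the summed processed signal of all probes in bromate replicates 1, 2 and 3, against 3.39%, 3.28% and 3.39% in water replicates 1, 2 and 3. The groups did not overlap in this share, which averaged 3.93 ± 0.035% in bromate and 3.35 ± 0.060% in water (SD, n = 3 each). A share also depends on the other probes in the sum, and 244 other named genes with bright probes had a median difference of -0.17. How much of the larger share came from either side was not tested. Set against each gene's own mean over the 6 arrays, the median gene of the family stood at 0.19, 0.03 and 0.08 in bromate replicates 1, 2 and 3 and at -0.05, -0.16 and -0.09 in water replicates 1, 2 and 3. Bromate replicate 1 was thus the highest array of the family, with 76 genes above their own mean, and water replicate 2 the lowest, with 4. The gap between bromate replicate 2 and water replicate 1, the nearest arrays of the groups, was smaller than the gap between bromate replicates 1 and 2. Bromate replicate 1 had the fewest probes well above background (57.9%, against 61.0% and 62.0% in bromate replicates 2 and 3). The fit with array weights gave it 0.55 and water replicate 1 0.41, against 1.31 to 1.70 for the other arrays.

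**Figure D2:**
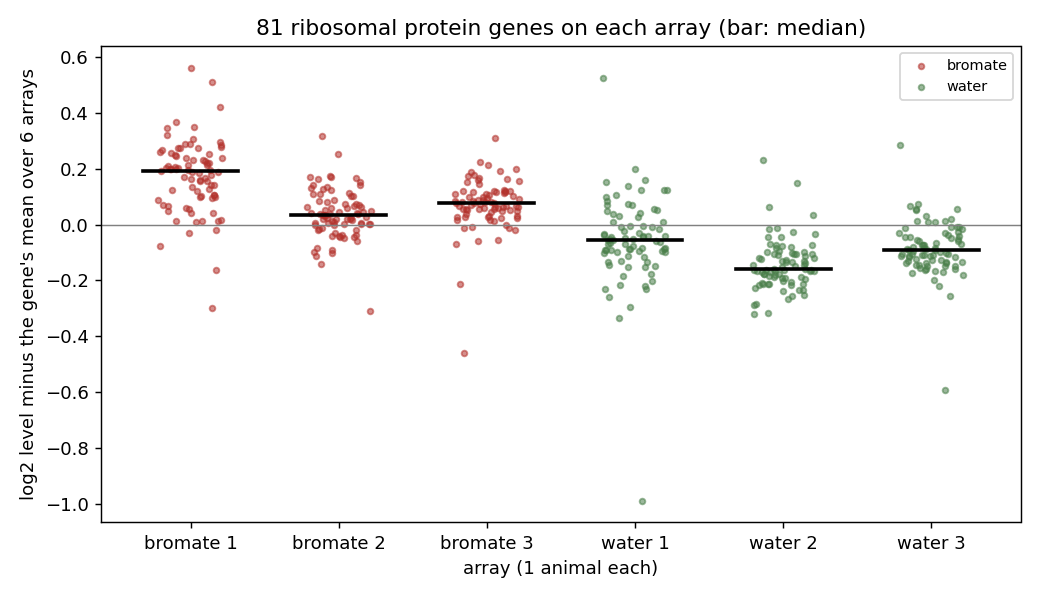
Each point is 1 of the 81 ribosomal protein genes on 1 array (1 animal), as its log2 level minus that gene's mean over the 6 arrays; bars are medians. The 3 bromate medians (0.19, 0.03 and 0.08) lie above 0 and the 3 water medians (-0.05, -0.16 and -0.09) below it.

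The sequence around the annotated transcript start is shown for the 7 genes that rose and for 3 genes whose brightest probe had a difference below 0. These 3 were picked for having a TOP start, so their lines cannot show how often the tract occurs among genes below 0. Rpl11, Rpl18, Rpl3l and Rps12l4, also below 0 and with a window, had no TOP start and are not shown. Each line holds 30 bases of the RefSeq promoter window (build GRCr8), read 5′ to 3′ on the gene's strand, with the annotated start at base 16 and the TOP run in capitals; a line with no capitals had none by the rule used, a C within 5 bases of the start followed by at least 4 bases that are each C or T.
Rpl31 (chr9:49143096-49143125, plus strand): ccacaatccctcgcgCCTTTCCTTTCCaac
Rps23 (chr2:23814502-23814531, plus strand): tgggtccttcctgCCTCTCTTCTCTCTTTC
Rpl39 (chrX:121195882-121195911, minus strand): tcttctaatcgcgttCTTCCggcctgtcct
Rps27a (chr14:107488927-107488956, minus strand): cctaaagggcggttCCTTCgacccggagac
Rpsa (chr8:128728864-128728893, plus strand): cctttccgcgctaccctggaacgggtccgt
Rps19 (chr1:89608673-89608702, plus strand): cccgacttgtgcgcccgggaaaccccgtcg
Rps15a (chr1:181860270-181860299, minus strand): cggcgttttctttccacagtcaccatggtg
Rpl19 (chr10:83519049-83519078, plus strand): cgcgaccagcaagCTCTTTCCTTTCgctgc
Rpl35a (chr11:81235007-81235036, minus strand): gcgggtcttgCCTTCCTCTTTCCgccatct
Rpl29 (chr8:115947628-115947657, plus strand): gggcctttctCTTTCTCTTCCggtcccagg
In Rps23 the run went on past the printed bases, to 21 bases in all. Rps27a had a second annotated start, without a TOP run by this rule. Of the 81 genes, 64 had at least 1 such window, and 39 of their 65 windows held a TOP start, against 5704 of 33469 windows of all genes (17.0%). The median difference was 0.20 among the 39 genes with one, of which 4 rose, and 0.18 among the 25 genes with a window and none, of which 3 rose; the medians were close, and their gap was not tested. Annotated starts can lie some bases off the true start, so an absent run says only that none began within 5 bases of the annotated start. The printed lines of Rpsa and Rps15a hold a C followed by at least 4 such bases further upstream. Short motifs were also counted on either strand of the window from 250 bases before to 50 after the start. The letters CCGGAAG, which ETS factors bind, were in 27.7% of the family's windows and 8.75% of all windows, and AAGATGGC (YY1) in 7.69% and 3.17%. CACGTG (E-box) was in 7.69% and 6.42%, TGACNNNGC (the core of the antioxidant response element) in 18.5% and 12.1%, and TATAAA in 10.8% and 14.2%. By call, TGACNNNGC was in 0 of 8 windows of called members and 12 of 57 windows of members not called. AAGATGGC and CACGTG were each in 0 of 8 and 5 of 57, CCGGAAG in 2 of 8 and 16 of 57, and TATAAA in 1 of 8 and 6 of 57. This split was not tested.

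Of the small subunit, 5 of 31 genes rose (16.1%, against 6.87% of all genes and 8.6% of genes with a symbol), and the median difference was 0.20. The gene with the largest rise was Rpsa, which encodes the protein known as the laminin receptor and sits near the site where mRNA leaves the subunit. Its levels were 6.29, 6.04 and 6.06 in bromate replicates 1, 2 and 3, against 5.54, 5.58 and 5.71 in water replicates 1, 2 and 3. The bromate values all lay above the water values, and the difference was 0.52 ± 0.11 (SE; 1.43-fold, adjusted p = 0.0294, limma with Benjamini-Hochberg adjustment over all genes, as for every adjusted p below). Rps27a, which is made as a fusion with ubiquitin and is cut from it, had 6.58, 6.34 and 6.45 in bromate rats, against 6.02, 5.98 and 6.03 in water rats. It rose by 0.45 ± 0.09 (1.36-fold, adjusted p = 0.0295), with water values that lay close together. Rps19, the first gene found mutated in human Diamond-Blackfan anaemia, had 6.30, 6.27 and 6.32 in bromate rats, against 5.84, 5.87 and 5.99 in water rats. It rose by 0.40 ± 0.08 (1.32-fold, adjusted p = 0.0288), and its bromate values varied least of these 7 genes.

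Rps23 encodes a protein next to the decoding site, where codon and anticodon pair. It had 8.02, 7.86 and 7.89 in bromate rats, against 7.66, 7.47 and 7.52 in water rats, and rose by 0.38 ± 0.09 (1.30-fold, adjusted p = 0.0470). Rps15a, a protein of the body of the subunit, had 6.40, 6.35 and 6.30 in bromate rats, against 6.05, 6.002 and 6.01 in water rats, and rose by 0.33 ± 0.07 (1.26-fold, adjusted p = 0.0388). It had the smallest fold of the 7, with little spread in either group. Rps24, with a difference of 0.39 ± 0.17 near that of Rps23, did not pass the test by its brightest probe (adjusted p = 0.177), whose bromate values of 6.73, 6.14 and 6.38 overlapped its water values of 6.004, 5.91 and 6.18. Its other probe, tested for itself, was called higher, with 5.92, 5.82 and 5.82 in bromate rats, against 5.54, 5.44 and 5.52 in water rats (difference 0.35 ± 0.08, adjusted p = 0.0366).

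By place in the small subunit, the 4 genes of mRNA entry and decoding (Rps2, Rps3, Rps15 and Rps23) had differences from 0.09 to 0.38, and the 4 genes of mRNA exit and the platform (Rps14, Rps26, Rps28 and Rpsa) from 0.03 to 0.52. All 4 of the exit group had bromate values above all water values, also Rps14, whose difference was 0.03. So did 61.7% of the whole family and 19.6% of all genes. Rps6, the target of the S6 kinases, had a difference of 0.18 and was not called (adjusted p = 0.223). All 29 main genes of the small subunit lay above 0 with this scaling.

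Of the large subunit, 2 of 50 genes rose (4%, below the 6.87% of all genes called higher), with a median difference of 0.19. The subunits' counts were not tested against each other. Rpl31, at the rim of the tunnel through which the new protein leaves, had 7.20, 7.05 and 7.09 in bromate rats, against 6.78, 6.59 and 6.75 in water rats. It rose by 0.41 ± 0.09 (1.33-fold, adjusted p = 0.0388). Rpl39, a small protein that lines the tunnel itself, had 6.66, 6.57 and 6.62 in bromate rats, against 6.24, 6.13 and 6.28 in water rats. It rose by 0.40 ± 0.08 (1.32-fold, adjusted p = 0.0301), with no overlap between the groups. Rpl4 and Rpl17, the other tunnel genes, had smaller differences of 0.08 and 0.11 and were not called. Rpl13 and Rpl36a, with differences of 0.37 and 0.35, came next in size and did not pass the test (adjusted p = 0.0622 and 0.0775).

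The stalk recruits the factors that drive each step of elongation, and its 4 genes had differences of nearly the same size. Rplp0, the base of the stalk, had 8.79, 8.58 and 8.67 in bromate rats, against 8.58, 8.36 and 8.43 in water rats (difference 0.22 ± 0.10, adjusted p = 0.185). Rplp1 had a difference of 0.26 ± 0.10 (adjusted p = 0.134) and Rplp2, its partner in the stalk dimers, 0.28 ± 0.09 (adjusted p = 0.0949). Rpl12, which binds beside the stalk, had 0.27 ± 0.08 (adjusted p = 0.0778). None of the 4 was called by its brightest probe. In all 4 the bromate values lay above the water values, as in 61.7% of the whole family and 19.6% of all genes. A dimmer probe was called higher in 3 of them when each probe was tested for itself: in Rpl12 (0.54 ± 0.13, adjusted p = 0.0444), in Rplp1 (0.38 ± 0.09, adjusted p = 0.0476) and in Rplp2 (0.34 ± 0.08, adjusted p = 0.0422).

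Neither gene of the pair that carries 5S ribosomal RNA, and that binds MDM2 in human cells, passed the test. Rpl5 had 5.65, 5.57 and 5.66 in bromate rats, against 5.39, 5.41 and 5.52 in water rats (difference 0.19 ± 0.08, adjusted p = 0.169). Rpl11 had 6.99, 6.93 and 6.92 in bromate rats, against 7.10, 6.93 and 6.99 in water rats (difference -0.06 ± 0.08, adjusted p = 0.647). The 95% intervals of -0.01 to 0.38 for Rpl5 and -0.26 to 0.14 for Rpl11 overlapped. The sign of Rpl11 depended on the probe, since its other probe had a difference of 0.04, and it turned under 1 other scaling (0.13). The 3 genes nearest the catalytic centre, Rpl3, Rpl8 and Rpl10, had differences from 0.10 to 0.17 and were not called. Rpl41, the shortest protein of the ribosome, had a difference of 0.13 ± 0.09 (adjusted p = 0.346).

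None of the 8 paralogs or copies was called by its brightest probe. The largest difference of the whole family was that of Rpl37al2, at 0.79 ± 0.26 (1.73-fold), which did not pass the test (adjusted p = 0.0972). Its levels were 3.09, 2.84 and 2.84 in bromate rats, against 1.54, 2.42 and 2.43 in water rats, so that water replicate 1 stood far below the others, and without that array the difference was 0.50 (adjusted p = 0.0543). Rpl37l1 had 0.27 ± 0.10, and 1 of its other 3 probes was called higher when tested for itself (0.36 ± 0.09, adjusted p = 0.0487). Its mean levels of 7.71 in bromate and 7.44 in water were as high as those of many main genes. No gene with the symbol Rpl37 was tested, so Rpl37l1 may be a main gene that its symbol places among the copies. Rpl36al1 had 0.19 ± 0.11 and Rpl30l3 0.11 ± 0.31, the last with values from 0.82 to 1.64 within the water group alone, and its sign turned without bromate replicate 1 or water replicate 3 (-0.05 and -0.16). Rps4y2 (0.18) and Rpl22l1 (0.07) had the opposite sign when all their probes were averaged (-0.10 and -0.07). Rpl3l, the form that in mice is found mainly in heart and skeletal muscle, was dim in all animals, at -4.50, -4.38 and -4.40 in bromate rats, against -4.22, -4.28 and -4.27 in water rats. Its difference was -0.17 ± 0.08 (adjusted p = 0.185), and the sign turned under 2 other scalings (0.12 and 0.02). Rps12l4, with the lowest difference of the family (-0.28 ± 0.22), had overlapping groups.

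Besides Rpl11, Rpl3l and Rps12l4, Rpl7, Rpl18, Rpl19, Rpl29 and Rpl35a had differences below 0, and these 5 are named because of their values. Rpl18 had 6.95, 6.80 and 6.87 in bromate rats, against 7.04, 6.97 and 6.995 in water rats (difference -0.13 ± 0.08, adjusted p = 0.303). All 3 of its probes had differences below 0, from -0.26 to -0.13, and none was called. All 5 Rpl35a probes were also below 0, from -0.10 to -0.06, and none was called. Probes of the other 3 genes lay on both sides of 0. The brightest Rpl19 probe had a difference of -0.14 ± 0.15 and the other 3 had 0.12, 0.18 and 0.23. For Rpl29 the brightest had -0.03, 1 of the others -0.0099 and the other 3 from 0.02 to 0.03, and 1 of 3 Rpl7 probes had 0.05.

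Since 72 of the 81 genes had more than 1 tested probe, each of the 239 probes was also tested for itself. Of these, 26 were called higher and none lower, in 13 genes, and 10.9% of the family's probes were thus called, against 7.19% of all probes called higher and 7.6% called lower. At an unadjusted p under 0.05, 99 of the 239 were higher and 2 lower. Of the 158 probes besides the brightest, 141 had the same sign as the brightest and 17 the opposite one. All 4 Rps15a probes were called, with differences from 0.33 to 0.50, as were all 3 probes of Rps27a (0.39 to 0.50) and of Rpl39 (0.35 to 0.41). For Rpl31 the brightest of 5 probes was called, and the others had 0.25 to 0.30. No gene had probes of opposite sign with one of them called. Genes of this family have many near-identical processed pseudogenes, and whether a probe also caught their transcripts was not tested.

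**Figure D3:**
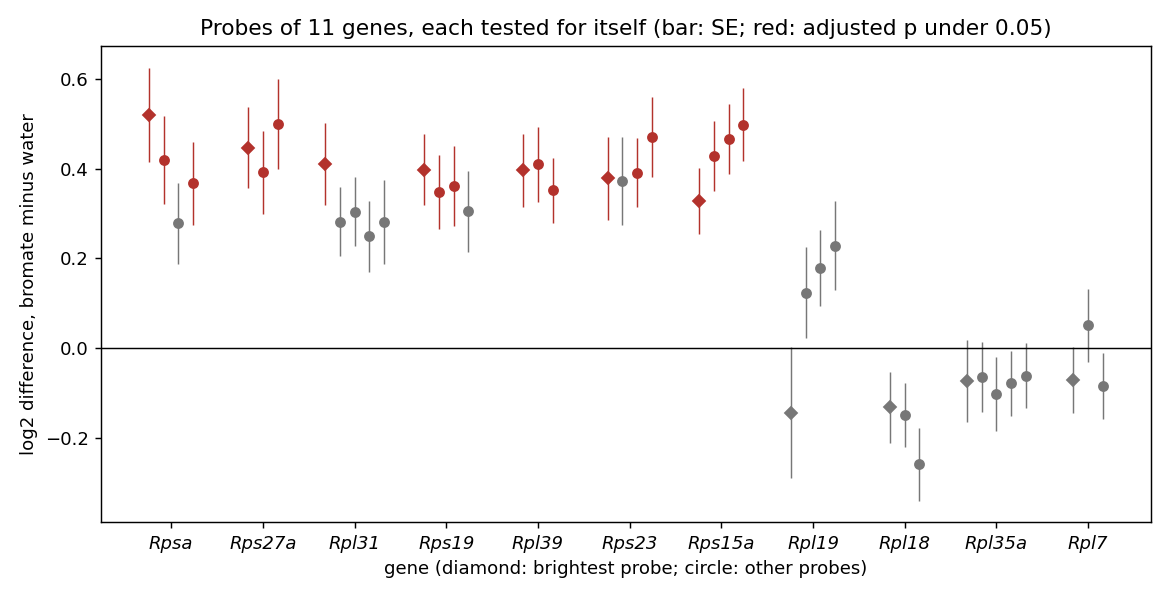
Each probe of the 7 genes that rose and of 4 genes whose brightest probe was below 0 (vertical axis, log2 difference, bromate minus water, ± SE); diamonds are brightest probes, and red marks an adjusted p under 0.05 in the fit of all probes. Every probe of the 7 genes lies above 0, while Rpl19 and Rpl7 have probes on both sides and all probes of Rpl18 and Rpl35a lie below 0.

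The 81 differences had an SD of 0.16, against a median SE of 0.089 for a single gene, and the 95% intervals of 72 of the 81 genes contained the family's median. Whether the 7 genes that rose differed from the other members was not tested. Their calls rested on all 6 arrays: without water replicate 1, which was alone on its slide, Rps23 alone was called (difference 0.43), and without any other array none was, with 13 to 31 of the 81 genes higher at an unadjusted p under 0.05. The highest adjusted p of each of the 7 genes over these 6 fits was between 0.0983 and 0.142. The fit within the slide that held the other 5 arrays is the same as that without water replicate 1 and gave a family median of 0.22.

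The scaling between arrays changed how many members were called and no direction of a call. Family members called higher numbered 25 with quantile normalization (7.98% of all genes were called higher), 30 with normexp background correction and quantile normalization (9.11%), 17 with cyclic loess (8.15%) and 0 with the E1A spike-in probes (3.29%). No family member was called lower under any of 24 alternatives. The family's median difference lay between 0.16 and 0.38 and above the median of all genes in each of them. The 0.38 came from scaling each array to the median of other named genes with bright probes, an alternative added after the values had been seen, which also moved the median of all genes to 0.17 and made 54 family members higher. With that scaling 81.9% of all calls were higher, and with no scaling 59.4%, against 47.5% with the 75th percentile.

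**Figure D4:**
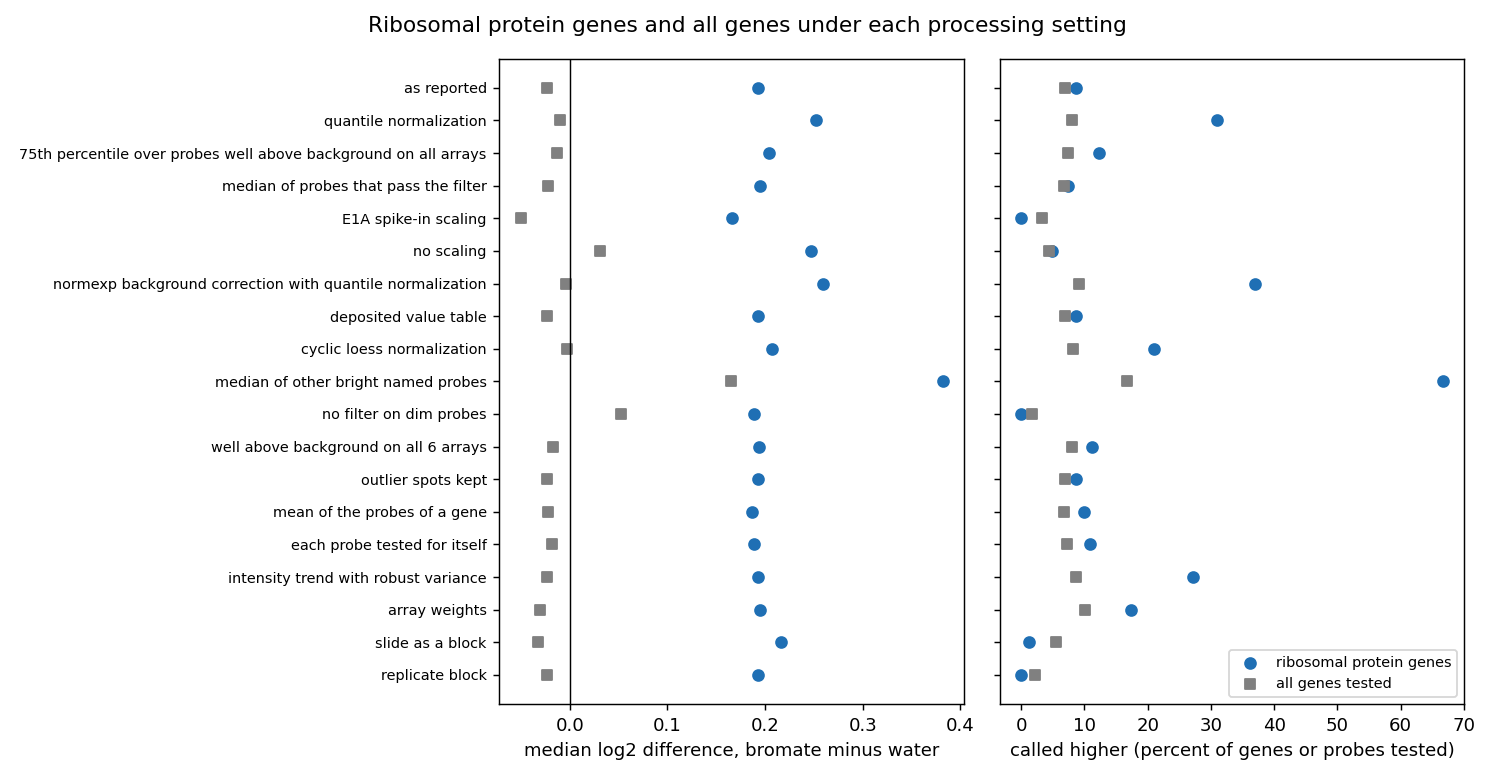
Median log2 difference (left) and percent called higher (right) of the ribosomal protein genes (circles) and of all genes tested (squares) under the setting as reported and 18 alternatives, without those that leave out 1 array. The family's median lies right of that of all genes in every row, while the percent called spreads from 0 to 66.7.

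These genes have bright probes, and the median of other bright probes had the opposite sign. Among 244 other named genes whose brightest probe was at least as bright as the lower quartile of the family, the median difference was -0.17. Of these, 7 were called higher (2.87%, against 6.87% of all genes) and 46 lower (18.9%, against 7.59% of all genes). The set holds 9 of the tubule markers used to check the tissue, 5 of which fell, and without these 9 its median was -0.16, with 7 called higher and 41 lower. The median gene of all 244 stood at 0.00, -0.17 and -0.09 in bromate replicates 1, 2 and 3, against 0.11, 0.06 and 0.10 in water replicates 1, 2 and 3.

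Ribosomes are assembled in the nucleolus by factors that are not part of the finished particle. Of 57 tested genes of a list of such factors, 23 rose (40.4%, against 6.87% of all genes) and 1 fell, with a median difference of 0.33. This list was chosen with earlier results of these data known. Heatr1, which promotes transcription of ribosomal DNA, had -0.50, -0.59 and -0.69 in bromate rats, against -1.29, -1.49 and -1.42 in water rats (difference 0.81 ± 0.10, 1.75-fold, adjusted p = 0.00749). Pwp2, of the particle that processes the small subunit's RNA, rose by 0.73 ± 0.17 (1.65-fold, adjusted p = 0.0449) and Gar1, of the machinery that turns uridine into pseudouridine, by 0.64 ± 0.12 (1.56-fold, adjusted p = 0.0234). The gene that fell was Eif6, which keeps a new large subunit from joining a small one too early, with 5.10, 5.08 and 5.07 in bromate rats, against 5.50, 5.40 and 5.43 in water rats (difference -0.36 ± 0.07, adjusted p = 0.0306). Without 1 of the 6 arrays, 2 to 10 assembly genes were called higher.

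The mitochondrial ribosome, a separate particle with its own proteins, gave a median near 0. Of 67 genes for its proteins, Mrpl55 rose (difference 0.41 ± 0.07, adjusted p = 0.0230) and Mrpl48 fell (-0.33 ± 0.08, adjusted p = 0.0463), with a median of -0.00 for the list. These calls are 1.49% of the list in each direction, against 6.87% of all genes called higher and 7.59% called lower. A list of translation factors and other genes whose mRNAs also carry a TOP start had a median of 0.11 over 17 genes. Its 1 call (5.88%, against 6.87% of all genes) was Npm1, which encodes the nucleolar chaperone nucleophosmin, is no translation factor and is already counted in the assembly list (0.58 ± 0.08, adjusted p = 0.0133).

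**Figure D5:**
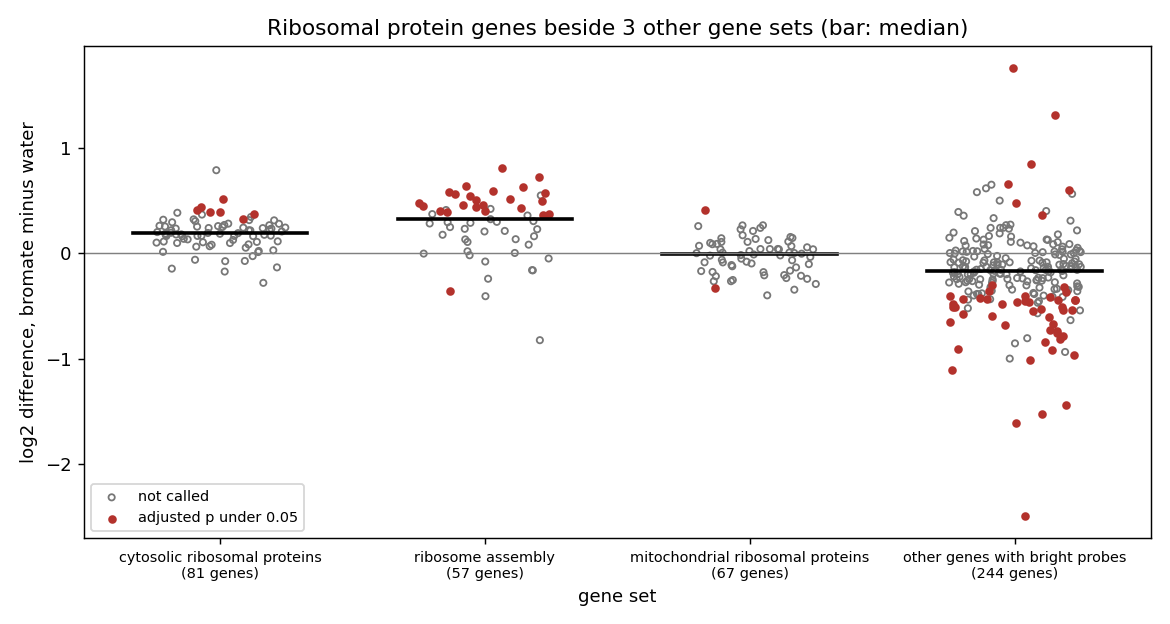
Log2 difference (bromate minus water) of each gene in 4 sets, with the median as a bar; red marks an adjusted p under 0.05. The medians are 0.19 for the cytosolic ribosomal proteins, 0.33 for ribosome assembly, -0.00 for mitochondrial ribosomal proteins and -0.17 for 244 other genes with bright probes.

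Of 20 genes of the TOR pathway and of TOP mRNA control, Eif4ebp1 alone was called (5%, near the 6.87% of all genes called higher). This inhibitor of cap-dependent translation had 3.02, 3.38 and 3.09 in bromate rats, against 1.67, 1.77 and 2.13 in water rats, and rose by 1.30 ± 0.16 (2.47-fold, adjusted p = 0.00883). Of 6 ribosomal S6 kinase genes (16.7% called, against 6.87% of all genes called higher), Rps6ka3 rose, by 0.53 ± 0.08 (adjusted p = 0.0137). Of these 6 genes 3 lay below 0. Of 8 genes of p53 control by ribosomal proteins, 3 rose (37.5%, against 6.87% of all genes). These were the p53 targets Ccng1 (0.96 ± 0.15, adjusted p = 0.0148), Zmat3 (0.67 ± 0.09, adjusted p = 0.0105) and Mdm2 (0.63 ± 0.08, adjusted p = 0.0108). The list as a whole did not rise: 4 of the 8 genes lay below 0, and the median difference was -0.02. Of 14 genes of ribosome quality control and the integrated stress response, 4 rose (28.6%, against 6.87% of all genes), and the list's median difference was 0.10. Asns, the asparagine synthetase gene, led them (2.41 ± 0.12, 5.32-fold, adjusted p = 0.000936), with Trib3 (1.62 ± 0.29), Ppp1r15a (0.79 ± 0.15) and Pelo (0.37 ± 0.08).

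Markers of other cell types moved in the same arrays, where 6.87% of all genes were called higher and 7.59% lower. All 10 proximal tubule markers were measured and 6 fell, with a mean level of 6.60 to 6.74 in bromate rats and 7.31 to 7.45 in water rats. All 6 markers of the distal tubule and thick ascending limb fell (1.84 to 2.08 in bromate, 4.34 to 4.42 in water), as did 3 of 6 of the collecting duct (2.80 to 2.96 in bromate, 4.16 to 4.55 in water), 1 of 5 of podocytes (0.65 to 0.85 in bromate, 0.81 to 1.16 in water) and 1 of 5 of endothelium (2.08 to 2.18 in bromate, 2.33 to 2.59 in water). Of 9 macrophage markers C1qb rose, and the mean level was 1.39 to 2.22 in bromate and 1.40 to 1.62 in water. Of 13 cell division genes 4 rose, with -1.29 to -0.02 in bromate and -1.49 to -1.01 in water. No gene was called among 5 fibroblast (0.93 to 2.25 in bromate, 1.81 to 2.09 in water), 5 lymphocyte (-2.35 to -1.91 in bromate, -2.03 to -1.84 in water) and 4 red cell markers (3.61 to 4.90 in bromate, 3.65 to 4.53 in water), and none of 5 liver markers was bright enough to be tested. Bromate replicate 1, highest for the ribosomal proteins, was the lowest bromate array for macrophage (1.39), fibroblast (0.93), lymphocyte (-2.35) and cell division genes (-1.29), and the highest for red cell (4.90), collecting duct (2.96), podocyte (0.85) and endothelium markers (2.18) and for assembly genes (1.498). The part of these cell types in the ribosomal protein shift was not tested, and in whole cortex a change in the share of a cell type and a change in RNA per cell cannot be told apart.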

How the data were processed

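Total RNA of each animal was labelled with Cy3 and hybridised to 1 array. The authors deposited scanner files whose processed signal is a background-subtracted intensity, written by Agilent's Feature Extraction (10.7) according to the submitters' processing notes; the array is annotated on rn4, per the file headers, and no coordinates on that build are given. The authors also deposited a value table, which holds a ratio: its columns matched the processed signal over the 75th percentile with a worst deviation of 0.193% to 0.365%. Its scale was thus linear and uncentred with the direction of the signal, which no source used here states; column medians were 0.1025, 0.1055 and 0.1026 (bromate replicates 1 to 3) and 0.1043, 0.1049 and 0.1031 (water replicates 1 to 3).

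Levels were log2 of the processed signal minus log2 of the array's 75th percentile over probes that are not controls; control and outlier spots were left out (0 to 4 outlier spots and 0 saturated probes per array, 57.9% to 63.1% of probes well above background). Probes had to be well above background on 3 or more of the 6 arrays, and the brightest probe stood for its gene. The comparison used limma 3.58.1 (lmFit, eBayes) under R 4.3.3, with data.table (version 1.17.8), Benjamini-Hochberg adjustment over 27506 genes and a threshold of 0.05; the fit was tested on simulated data. The number of arrays limits the precision. The labels call the 3 animals of a group biological replicates.

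The members and lists were chosen with earlier results of these data known. Genes named were every member called, the 10 largest differences, all members of the stalk, 5S, ubiquitin fusion and paralog groups, the 3 brightest and 3 dimmest, members with opposed probes and a call, and up to 3 called genes per direction of each related list. Pelo, the other role groups and 5 members below 0 were added after their values were seen. Some list genes are not reported here. Alternatives were 22 planned and 2 added later (cyclic loess, and scaling to other bright probes). Protein sequences were not used here. Replicate numbers were not used as a pairing, since the labels do not call them one. Deviations of same-numbered arrays from their group means correlated at 0.05, 0.07 and -0.10, and those of differently numbered arrays at -0.12 to 0.09. So few values cannot show whether the animals were paired.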

Additional observations from a re-analysis of the deposited data

How the results depend on the processing

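Over the whole array, genes called higher and lower numbered 904 and 1058 with the spike-in scaling, 1230 and 842 with no scaling, 4590 and 1014 with the median of other bright probes, 750 and 694 with no filter on dim probes, and 585 and 535 with the replicate block; array weights gave 3258 lower. Ribosomal protein genes called higher numbered 25 with quantile normalization, 30 with normexp, 17 with cyclic loess, 54 with the bright probes, 0 with the spike-ins, 4 with no scaling, 0 with no filter, 26 (probes) with each probe for itself, 22 with an intensity trend, 14 with array weights, 1 with slide as a block and 0 with the replicate block, a blocking that the labels do not call a pairing; none was called lower. Assembly genes called higher numbered 7 with the spike-ins, 12 with no scaling, 39 with the bright probes, 3 with no filter, 42 (probes) with each probe, 10 with slide and 2 with the replicate block. With the bright probes the medians were 0.38 for the ribosomal proteins, 0.51 for assembly and 0.19 for the mitochondrial list. Signs turned, in genes not called, for Rpl3l (0.12 with normexp, 0.016 with the bright probes), Rpl11 (0.13 with the bright probes), Rpl22l1 (-0.066) and Rps4y2 (-0.10) with the mean of the probes, and Rpl30l3 (-0.05 without bromate replicate 1, -0.16 without water replicate 3, the range over left-out arrays being -0.16 to 0.36); the cause was not tested. Leaving out each array in turn gave 594 to 1495 genes higher and 530 to 1835 lower, 0 to 1 ribosomal protein genes higher, medians of 0.16 to 0.24 for the ribosomal proteins, 0.27 to 0.37 for assembly and -0.05 to 0.03 for the mitochondrial list, and 2 to 10 assembly genes higher.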
